A study of Homo sapiens with 6 samples.

Results

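The 10 genes described here encode the enzymes and partners that write, maintain and remove DNA methylation: DNMT1, DNMT3A, DNMT3B, DNMT3L, TET1, TET2, TET3, UHRF1, UHRF2 and TDG. They were taken by name, and each was read from its probe set with 1 gene symbol, or from the brightest such probe set over the 6 arrays where there was more than 1. All 10 were measured, among 18417 genes tested. The cells were WA09, a long-established line of human embryonic stem cells, and total RNA of 3 groups went onto 6 Affymetrix arrays, 2 a group. Undifferentiated cells kept in StemPro defined medium are called hESC. ISL1-positive nascent mesoderm cells, obtained after 4 days in medium with BMP4 at 50 ng/ml and Wnt3a at 25 ng/ml, are called INM, and smooth muscle cells obtained after 21 days with the same 2 factors are called SMC. All 3 groups derive from 1 cell line. Nothing in the labels places the 2 arrays of a group in separate cultures, and the spread behind each p-value is that between these samples alone, which may be technical.

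DNA methylation is the addition of a methyl group to cytosine, in mammals mostly where cytosine is followed by guanine (CpG). DNMT3A and DNMT3B place new methyl groups, with DNMT3L as a cofactor that has no activity of its own, while DNMT1 copies the pattern to the new strand after replication, guided by UHRF1. TET enzymes oxidise the methyl group, and TDG cuts out the oxidised bases for repair. Pluripotent stem cells are known for high DNMT3B and TET1.

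The changes of DNMT3B, TET1 and TET2 carry the results below, so the promoter windows of these genes are shown, with every CpG, the dinucleotide on which the enzymes act, in capitals. The sequences are from RefSeq on GRCh38.p14 and cover 250 bases before and 50 after a transcript start. The windows are chr20:32779602-32779901 for DNMT3B, chr10:68560087-68560386 for TET1 and chr4:105145625-105145924 for TET2, all on the plus strand.
DNMT3B: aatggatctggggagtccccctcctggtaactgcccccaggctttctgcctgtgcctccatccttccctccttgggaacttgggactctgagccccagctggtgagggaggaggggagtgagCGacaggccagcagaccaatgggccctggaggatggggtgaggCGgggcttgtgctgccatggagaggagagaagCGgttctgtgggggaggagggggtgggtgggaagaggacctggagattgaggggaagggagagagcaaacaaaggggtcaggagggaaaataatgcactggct
TET1: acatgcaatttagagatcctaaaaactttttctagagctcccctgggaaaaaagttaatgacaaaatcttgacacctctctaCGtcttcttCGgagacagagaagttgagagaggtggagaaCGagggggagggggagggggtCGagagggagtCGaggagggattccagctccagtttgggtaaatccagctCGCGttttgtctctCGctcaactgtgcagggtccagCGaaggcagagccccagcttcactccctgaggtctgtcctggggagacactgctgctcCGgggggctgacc
TET2: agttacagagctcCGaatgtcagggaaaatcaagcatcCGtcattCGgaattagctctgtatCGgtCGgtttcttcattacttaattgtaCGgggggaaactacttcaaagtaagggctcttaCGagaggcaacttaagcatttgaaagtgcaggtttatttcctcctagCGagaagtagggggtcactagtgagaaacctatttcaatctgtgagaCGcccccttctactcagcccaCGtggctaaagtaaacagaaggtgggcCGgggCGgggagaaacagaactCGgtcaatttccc

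The DNMT3B window held 3 CpGs, the TET1 window 10 and the TET2 window 13, against a median of 14 over 35116 windows of the same length. The DNMT3B start lies 17467 bases inside the annotated gene and is the single start that the table gives for it, so it need not be the start used in these cells. The TET1 and TET2 windows lie at the upstream ends of their genes, and a second TET2 start 1001 bases further in had 35 CpGs. In all, 9 of the 10 genes matched the table, with 20 starts and between 3 and 46 CpGs a window. Within DNMT3A, TET1 and UHRF1, some windows of the same gene overlap, so a motif in shared bases can count in more than 1 window. The E2F motif TTTCCCGC, searched on both strands, was found in 1 of the 20 windows, a UHRF1 window, and in 1.63% of all windows, and the E2F motif TTTGGCGC in 0 of 20 and in 0.652%. The GC box GGGCGG lay in 12 of 20 and in 45.0% of all, the CCAAT box in 7 of 20 and 34.6%, the E-box CACGTG in 5 of 20 and 7.26%, and the octamer ATGCAAAT in 0 of 20 and 1.77%, each on either strand. A match of letters is a description and not a binding site, and methylation itself was not measured on these arrays.

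Values are log2 signals after RMA, on which a difference of 1 is a 2-fold change of signal, and levels of different genes were not compared. A gene was called higher or lower at an adjusted p under 0.05 in limma, with Benjamini-Hochberg adjustment over the 18417 genes. More mesoderm and smooth muscle markers were called in each comparison with hESC than in SMC versus INM. Stem cell markers did not follow this pattern. Of 10 measured, 10 were called lower in SMC than in hESC, 6 lower in INM than in hESC and 6 lower in SMC than in INM. Their median change was -1.47 in INM versus hESC and -1.36 in SMC versus INM. Of 10 mesoderm markers, 9 were called higher in INM than in hESC, and of 10 smooth muscle markers, 8 were called higher in SMC than in hESC. Of the same smooth muscle markers, 6 were already called higher in INM than in hESC, and in SMC versus INM 4 were called higher and 1 lower (MYOCD, a smooth muscle coactivator, at -1.74, SE 0.24). Of the mesoderm markers, 9 were also called higher in SMC than in hESC, and in SMC versus INM 2 were called higher and 4 lower. MYH11, a myosin of mature smooth muscle, passed no test and stood at 5.59 and 5.43 in SMC, against 5.77 and 5.51 in hESC. These signals lie within or close to the medians of unnamed probe sets, which ran from 5.04 to 5.65 over the arrays. Markers of other cell types also moved: 4 of 6 endothelial markers were called higher in SMC than in hESC, among them PECAM1 at 1.43 (SE 0.17) on the log2 scale, and 3 of 6 trophoblast and amnion markers were called higher in INM than in hESC. Mean levels of the endothelial list were 6.86 and 6.88 in SMC, against 5.84 and 5.76 in hESC, and those of the trophoblast and amnion list were 8.01 and 7.13 in INM, against 5.68 and 5.43 in hESC. Cardiomyocyte and neuroectoderm lists held 1 lower call each in SMC versus hESC (of 5 markers each), and the endoderm list held 0 calls of 6 in limma in that comparison. In bulk RNA, fewer cells of a type and less RNA per cell cannot be told apart, and the part of other cell types in the results below was not tested.

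DNMT3B, a methyltransferase that places new methyl groups, fell at both steps. Its signal was 11.36 and 11.46 in hESC, 8.55 and 9.02 in INM, with 6.53 and 6.53 in SMC, so the 3 groups did not overlap. Its level was 6.16-fold lower in INM than in hESC (log2 change -2.62, SE 0.17, adjusted p = 1.7e-04), and 4.79-fold lower in SMC than in INM (log2 change -2.26, SE 0.17, adjusted p = 4.5e-04). Over both steps the level was 29.5-fold lower in SMC than in hESC (log2 change -4.88, SE 0.17, adjusted p = 1.8e-05). That was the 13th largest fall among all genes in this comparison. At day 4 the INM mean had covered 53.7% of the log2 difference between hESC and SMC (58.6% in INM replicate 1 and 48.9% in replicate 2). All 3 calls were kept in each of 15 alternative analyses, 6 of which left out 1 array, and over these the SMC versus hESC change lay between -5.003 and -4.83. For each comparison, leaving out either array of the third group gave the same test as using only the 4 arrays compared. The 15 alternatives are therefore not all separate, here and in the counts below.

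DNMT3A and DNMT3L, the other genes of this family, moved far less. DNMT3A, the second enzyme that places new methyl groups, stood at 7.81 and 7.78 in hESC, 7.996 and 7.94 in INM, with 7.47 and 7.57 in SMC. Its arrays were highest in INM and lowest in SMC, with no overlap between the groups. The change was -0.45 (SE 0.11, adjusted p = 0.0322) in SMC versus INM, a call kept in 6 of 15 alternatives. It was lost without any 1 of the hESC or SMC arrays (adjusted p between 0.0712 and 0.195), and also with quantile normalization (0.0578), array weights (0.0589), every probe set tested (0.0501), only the 4 arrays compared (0.0712) and the replicate block (0.0601). DNMT3A was not called in INM versus hESC, at 0.17 (SE 0.11, adjusted p = 0.268), and quantile normalization turned that change to -0.02. It was not called in SMC versus hESC either, at -0.28 (SE 0.11, adjusted p = 0.0934), although 2 of 15 alternatives called it. Whether DNMT3A and DNMT3B differed in their change was not tested.

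DNMT3L, the cofactor without its own activity, stood between 5.59 and 5.76 on all 6 arrays. Its groups overlapped, and the median of unnamed probe sets ran from 5.04 to 5.65 over the arrays, so a level above background is not shown. INM differed by -0.05 from hESC, and SMC by -0.03 from INM and by -0.08 from hESC (95% interval -0.35 to 0.20, adjusted p = 0.625), and the sign turned under some alternatives in each comparison.

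**Figure D1:**
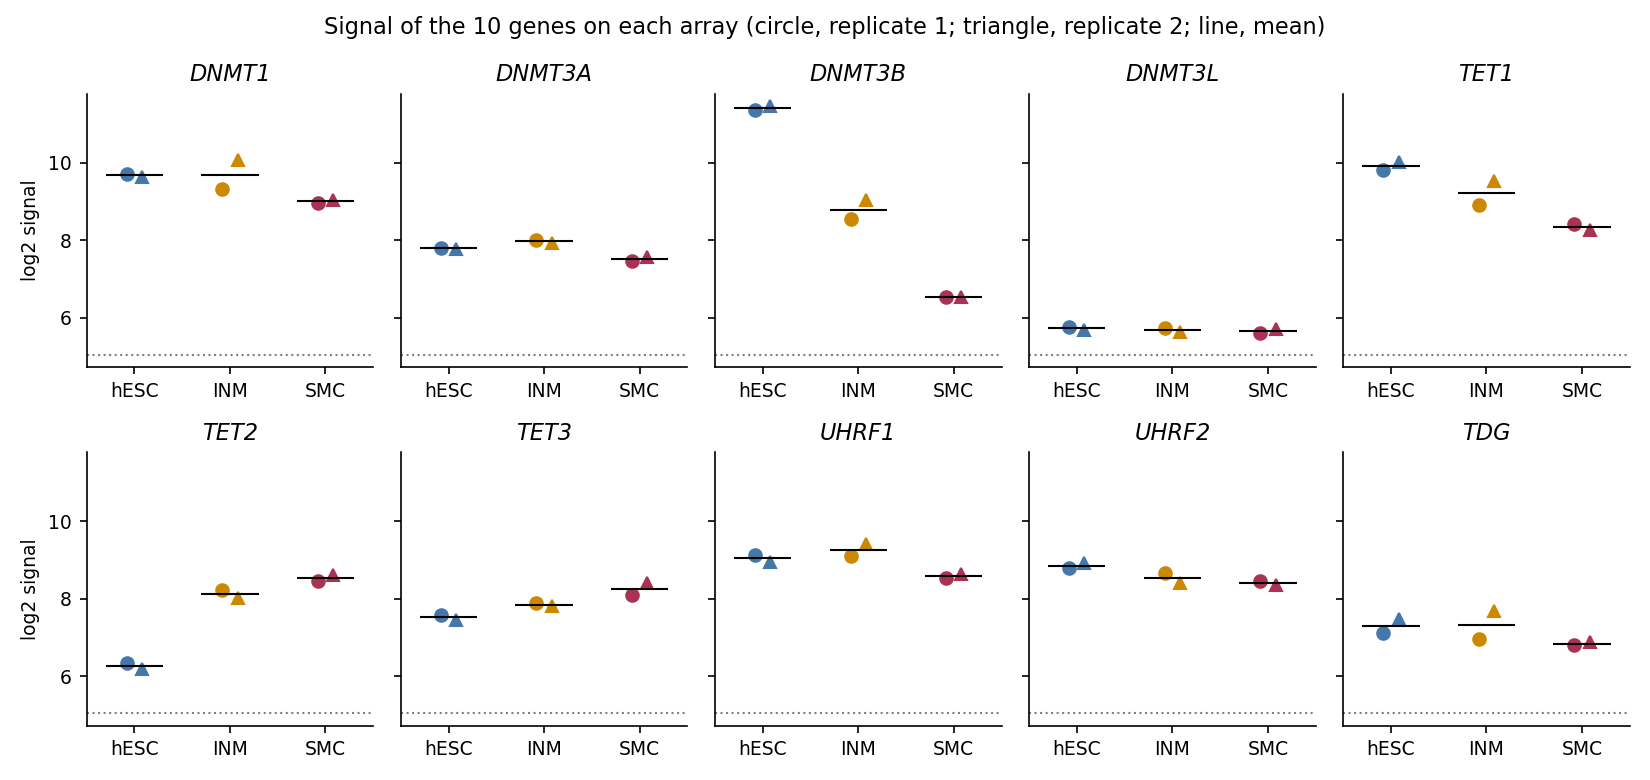
Log2 signal (vertical axis) of the 10 genes on each array in hESC, INM and SMC, with a circle for replicate 1, a triangle for replicate 2, a line for the group mean and a dotted line at 5.04, where the median of unnamed probe sets lay on the array with the lowest one. DNMT3B steps down from hESC (mean 11.41) through INM (8.79) to SMC (6.53), TET1 steps down as well, TET2 is high in INM and SMC, and the 2 INM arrays stand apart for DNMT1, TET1 and TDG.

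Genes of methylation maintenance had their lowest means in SMC, with smaller changes. DNMT1, the maintenance methyltransferase, stood at 9.70 and 9.64 in hESC, 9.31 and 10.06 in INM, with 8.97 and 9.03 in SMC. Both SMC arrays lay below all others, while the INM arrays enclosed the hESC arrays. The change in INM versus hESC was 0.01 (SE 0.23, adjusted p = 0.975, 95% interval -0.55 to 0.57). With INM replicate 1 left out DNMT1 was called higher, at 0.39 (adjusted p = 0.0393), and with INM replicate 2 left out it was called lower, at -0.36 (adjusted p = 0.0485), so its direction at day 4 rested on which array was used. Median centring and quantile normalization also turned the sign, to -0.07 and -0.24. In SMC versus INM the change of DNMT1 was -0.68 (SE 0.23, adjusted p = 0.0871), which was called without INM replicate 1, at -1.06 (adjusted p = 5.6e-04). In SMC versus hESC it was -0.67 (SE 0.23, adjusted p = 0.0638), which 6 of 15 alternatives called. Median centring (adjusted p = 0.0486), quantile normalization (0.0246), array weights (0.00544) and only the 4 arrays compared (9.7e-04) did so. The fits without either INM array are the same test as the last of these and add no separate support.

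UHRF1, which brings DNMT1 to newly copied DNA, stood at 9.14 and 8.95 in hESC, 9.09 and 9.41 in INM, with 8.52 and 8.64 in SMC. The SMC arrays were again the lowest, and the hESC and INM arrays overlapped. UHRF1 was called lower in SMC than in INM, at -0.67 (SE 0.15, adjusted p = 0.0245), and the call was lost without any 1 of the hESC or SMC arrays (adjusted p between 0.0533 and 0.159). In SMC versus hESC the change was -0.46 (SE 0.15, adjusted p = 0.0525), which 8 of 15 alternatives called. The lowest adjusted p came with only the 4 arrays compared (0.0112), which is the same test as without either INM array. In INM versus hESC it was 0.21 (SE 0.15, adjusted p = 0.330), and -0.045 with quantile normalization. A second, dimmer probe set of UHRF1 lay between 5.88 and 6.15 on all arrays and was not called in any comparison, and with the mean of both probe sets the SMC versus INM change was -0.30 (adjusted p = 0.114).

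UHRF2, a relative of UHRF1 with the same domain types, stood at 8.78 and 8.92 in hESC, 8.66 and 8.40 in INM, with 8.47 and 8.35 in SMC. Both hESC arrays were the highest, and the INM and SMC arrays overlapped. It was called lower in SMC than in hESC, at -0.44 (SE 0.14, adjusted p = 0.0429), a call kept in 9 of 15 alternatives and lost without any 1 of the hESC or SMC arrays (adjusted p between 0.103 and 0.209), with every probe set tested (0.0642) and with the replicate block (0.0634). The INM versus hESC change was -0.32 (SE 0.14, adjusted p = 0.113), which was called without INM replicate 1, at -0.45 (adjusted p = 0.0287), and with quantile normalization, at -0.55 (adjusted p = 0.0274).

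The TET genes moved in different directions. TET1, the dioxygenase of pluripotent cells, stood at 9.80 and 10.02 in hESC, 8.92 and 9.53 in INM, with 8.41 and 8.27 in SMC, so its groups were ordered without overlap. Its level was 2.96-fold lower in SMC than in hESC (log2 change -1.56, SE 0.21, adjusted p = 0.00178), a call kept in each of the 15 alternatives. The first step was -0.68 (SE 0.21, adjusted p = 0.0474) in INM versus hESC. That call was kept in 8 of 15 alternatives, among them without INM replicate 2, at -0.99 (adjusted p = 0.00133), and lost without INM replicate 1, at -0.38 (adjusted p = 0.0732), or without any 1 of the hESC or SMC arrays (adjusted p between 0.0919 and 0.208). The second step was -0.88 (SE 0.21, adjusted p = 0.0299) in SMC versus INM, a call lost without any 1 of the hESC or SMC arrays (adjusted p between 0.0669 and 0.178) and equal to -0.58 without INM replicate 2 (adjusted p = 0.0225).

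TET2, a dioxygenase of the same family that lacks the DNA-binding CXXC domain of TET1, rose. It stood at 6.33 and 6.18 in hESC, 8.23 and 8.01 in INM, with 8.44 and 8.60 in SMC, with no overlap between groups. Its level was 3.64-fold higher in INM than in hESC (log2 change 1.86, SE 0.13, adjusted p = 2.4e-04), and 4.82-fold higher in SMC than in hESC (log2 change 2.27, SE 0.13, adjusted p = 7.2e-05). Both calls were kept in all 15 alternatives. The SMC versus INM change was 0.41 (SE 0.13, adjusted p = 0.0803), which was called without INM replicate 1, at 0.51 (adjusted p = 0.0246). At day 4 the INM mean had covered 82.1% of the log2 difference between hESC and SMC for TET2, against 43.6% for TET1 (63.1% in INM replicate 1 and 24.1% in replicate 2). Whether these shares differ was not tested. A second TET2 probe set, tested among all 33297 probe sets, rose as well, by 1.36 (SE 0.14, adjusted p = 0.0014) in INM versus hESC and 1.62 (SE 0.14, adjusted p = 7.1e-04) in SMC versus hESC.

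TET3, the third member, stood at 7.59 and 7.46 in hESC, 7.88 and 7.80 in INM, with 8.09 and 8.40 in SMC, again in order and without overlap. It was called higher in SMC than in hESC, at 0.72 (SE 0.14, adjusted p = 0.00795), and the call was lost without SMC replicate 2, at 0.57 (adjusted p = 0.0638), or hESC replicate 2, at 0.65 (adjusted p = 0.0612). The single steps were 0.32 (adjusted p = 0.129) in INM versus hESC and 0.40 (adjusted p = 0.0926) in SMC versus INM.

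TDG, the glycosylase that removes oxidised methylcytosine, stood at 7.11 and 7.47 in hESC, 6.96 and 7.69 in INM, with 6.79 and 6.87 in SMC. The SMC arrays were the lowest and the INM arrays enclosed the hESC arrays, as for DNMT1. No comparison called TDG: INM differed by 0.03 from hESC (adjusted p = 0.935), and SMC by -0.49 from INM (adjusted p = 0.218) and by -0.46 from hESC (adjusted p = 0.196). The SMC versus INM change was -0.86 without INM replicate 1, and 1 of 15 alternatives called TDG in this comparison. In SMC versus hESC 4 of 15 alternatives called it: array weights (adjusted p = 0.0493), only the 4 arrays compared (0.0246) and, as the same test, either INM array left out. In INM versus hESC the sign turned to -0.05 with median centring, -0.09 with quantile normalization, -0.15 without hESC replicate 1 and -0.34 without INM replicate 2. RefSeq lists pseudogenes of TDG, DNMT3A and TET1, and the sources used here do not show whether the probe sets tell them apart.

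**Figure D2:**
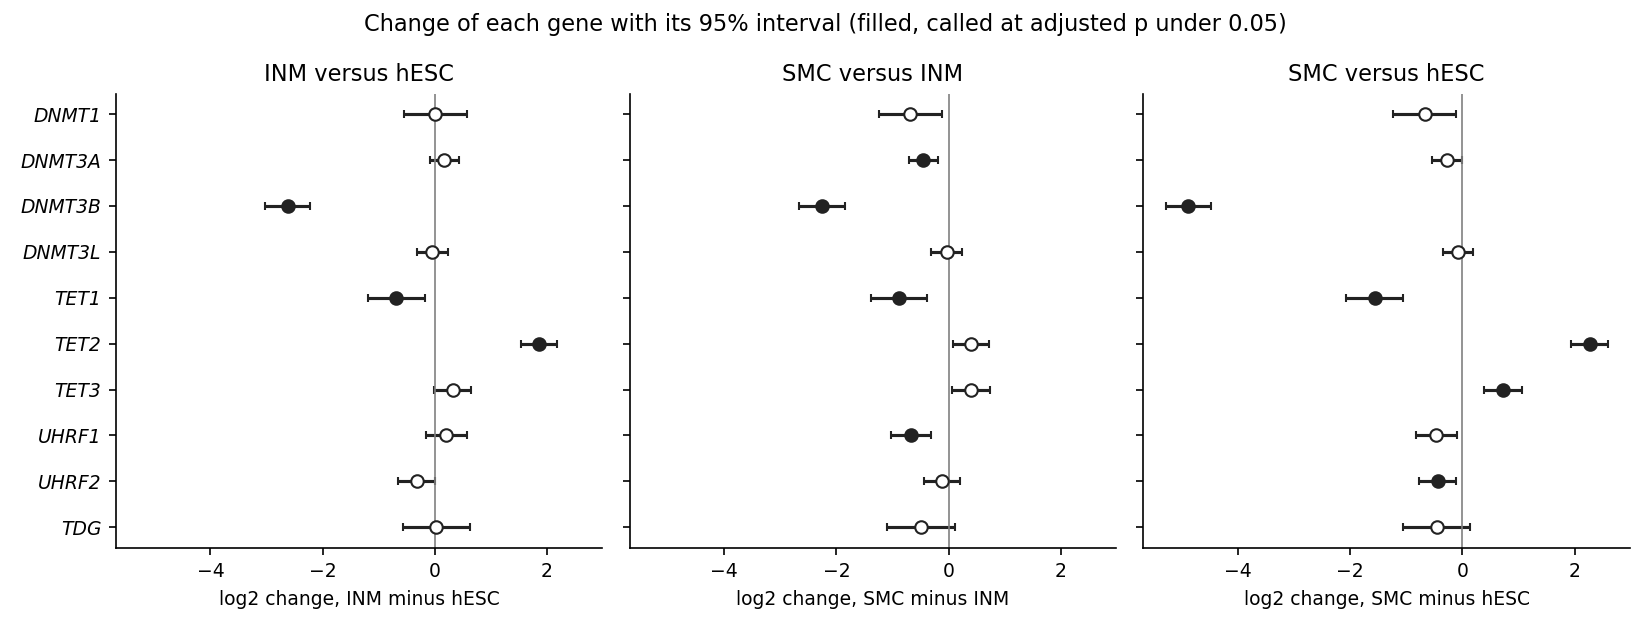
Log2 change of each gene (horizontal axis, the group named first minus the group named after it) with its 95% interval in the 3 comparisons; filled points were called at an adjusted p under 0.05. DNMT3B lies far to the left in all 3 panels (-2.62, -2.26 and -4.88), TET2 to the right of 1.5 in both comparisons with hESC, and DNMT3L close to 0 throughout.

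Counted over the 10 genes, 1 was called higher and 2 lower in INM versus hESC, against 33.8% of all genes called, 18.9% higher and 14.8% lower. In SMC versus INM 0 were called higher and 4 lower (DNMT3A, DNMT3B, TET1 and UHRF1), against 21.0% of all genes called, 9.94% higher and 11.1% lower. In SMC versus hESC 2 were called higher (TET2 and TET3) and 3 lower (DNMT3B, TET1 and UHRF2), against 37.2% of all genes called, 19.7% higher and 17.6% lower. Higher calls made up 56.1% of all calls in INM versus hESC, 46.0% with median centring, where the median change of all genes was -0.11, and 46.2% with quantile normalization. The median change of the 10 genes was 0.02, -0.47 and -0.45 in these comparisons, against -0.03, -0.02 and -0.05 over all genes. A limma F test over the 3 groups called 6 of the 10, against 45.5% of all genes. The 3 comparisons share arrays, and with 10 genes nothing particular to the group is read from these counts. DNMT3B, TET2 and TET1 had the largest changes of the 10 genes in both comparisons with hESC: in SMC versus hESC a larger change was found in 0.255% of all genes for DNMT3B, in 3.51% for TET2 and in 7.44% for TET1.

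**Figure D3:**
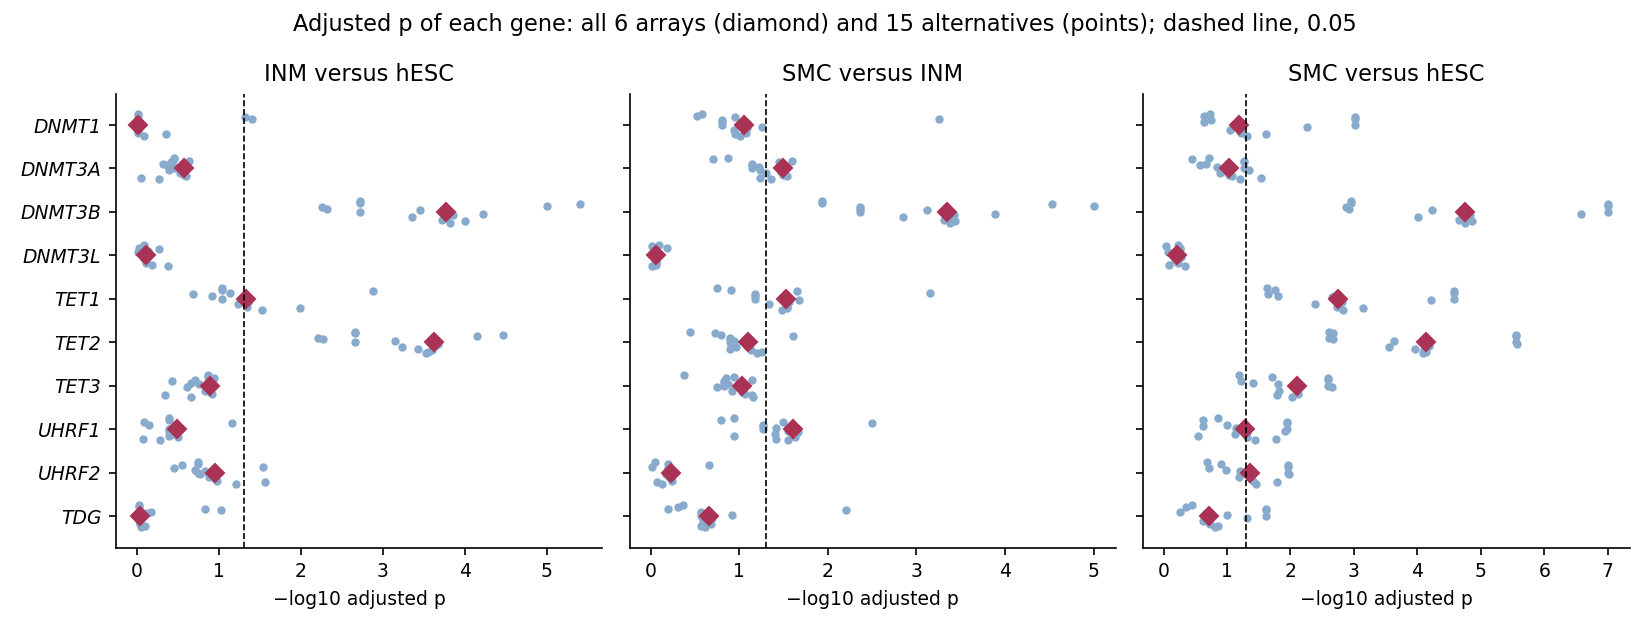
Adjusted p of each gene on a −log10 scale (horizontal axis), with a diamond for the fit to all 6 arrays, points for the 15 alternatives and a dashed line at 0.05. DNMT3B stays to the right of the line in every comparison, TET2 in both comparisons with hESC and TET1 in SMC versus hESC, while all other rows of points lie on both sides of the line or to its left.

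The 2 INM arrays differed more than the arrays of the other groups: 700 genes differed by over 1 on the log2 scale between them, against 16 in hESC and 11 in SMC. INM replicate 2 minus replicate 1 was 0.75 for DNMT1, 0.73 for TDG, 0.61 for TET1, 0.47 for DNMT3B and 0.32 for UHRF1, and it lay between -0.26 and -0.06 for the other 5 genes. A larger gap, in either direction, was found in 7.26% of all genes for DNMT1 and in 7.55% for TDG. Genes of S phase and mitosis moved the same way, since INM replicate 2 was the higher array for 24 of 24 S phase genes (median gap 0.71) and 20 of 20 mitosis genes (median gap 1.08). Over all genes it was the higher array for 9438 of 18417 (median gap 0.0088), and among the 10 genes for 5. The S phase list had mean levels of 8.94 and 9.002 in hESC, 8.45 and 9.14 in INM, with 8.12 and 8.11 in SMC, with INM replicate 2 highest, INM replicate 1 below both hESC arrays and SMC lowest, as for DNMT1. Of its genes, 1 was called higher and 15 lower in SMC versus hESC, with a median change of -0.86, while 2 were called higher and 0 lower in INM versus hESC. Of all genes, 19.7% were called higher and 17.6% lower in SMC versus hESC, and 18.9% higher and 14.8% lower in INM versus hESC. Without any 1 of the hESC or SMC arrays the SMC versus hESC calls numbered 6, and without either INM array 22. In INM versus hESC the 2 calls were lost without any 1 of the hESC or SMC arrays. More S phase genes were called without either INM array, and their directions and the share of all genes called are not given here. The mean level of the list lay below both hESC arrays in INM replicate 1 (8.45) and above both in INM replicate 2 (9.14). Its direction at day 4 therefore rested on which INM array was used. In the mitosis list 0 were called higher and 8 lower in SMC versus hESC, with 1 or 2 calls without 1 hESC or SMC array and 20 without either INM array. PCNA, the replication clamp, stood at 9.02 and 9.10 in hESC, 8.09 and 9.12 in INM, with 7.89 and 7.62 in SMC. The part of cell division in the values of DNMT1, UHRF1, TDG and TET1 was not tested.

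**Figure D4:**
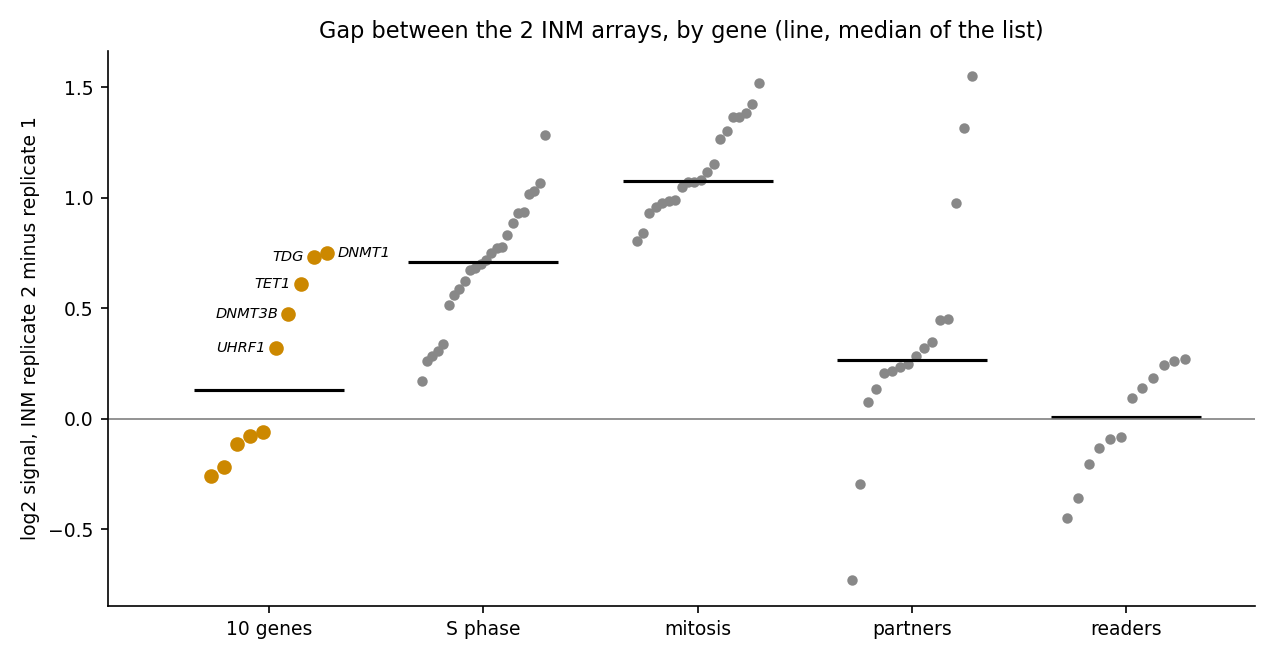
Log2 signal of INM replicate 2 minus INM replicate 1 (vertical axis) for the 10 genes and for the genes of 4 lists, with 1 point per gene and a line at each median. DNMT1, TDG, TET1, DNMT3B and UHRF1 lie above 0, at gaps within the range of the S phase list, whose 24 genes all lie above 0, while the median of the list of methylation readers is 0.01.

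Transcripts of proteins that bring the methyltransferases to chromatin, clear the way for them or act on UHRF1 were mostly lower in SMC than in hESC. Of 16 measured partners, 11 were called lower and 1 higher (KDM1B), with a median change of -0.72, against 17.6% of all genes called lower, 19.7% called higher and a median of -0.05. HELLS, a chromatin remodeller needed for methylation, stood at 9.68 and 9.81 in hESC, 7.25 and 8.22 in INM, with 6.84 and 6.83 in SMC, a change of -2.91 (SE 0.29, adjusted p = 5.4e-04) in SMC versus hESC. Its cofactor CDCA7 stood at 9.07 and 9.07 in hESC, 7.49 and 8.80 in INM, with 6.53 and 6.43 in SMC, a change of -2.59 (SE 0.38, adjusted p = 0.00247). CDCA7L, a paralog of CDCA7, changed by -2.19 (SE 0.44) and ZBTB24, a zinc finger factor that activates CDCA7, by -1.02 (SE 0.14) in the same comparison. DNMT3B, ZBTB24, CDCA7 and HELLS are mutated in the human ICF syndrome, in which satellite DNA lacks methylation, and all 4 were called lower in SMC than in hESC. These 4 were put together from genes already named here and not from a list of their own, and their shared direction was not tested. In INM versus hESC 4 partners were called lower and 2 higher, with HELLS at -2.01 (SE 0.29) and CDCA7L at -2.14 (SE 0.44). In SMC versus INM 7 were called lower and 0 higher. Of all genes, 14.8% were called lower and 18.9% higher in INM versus hESC, and 11.1% lower and 9.94% higher in SMC versus INM. INM replicate 2 was the higher INM array for 14 of the 16 partners, against 9438 of all 18417 genes. The CDCA7L change was -1.37 without INM replicate 1 and -2.92 without INM replicate 2. DPPA3, which in mouse displaces UHRF1 from chromatin, was called lower in INM than in hESC (adjusted p = 0.0193), with signals of 5.07 and 5.28 in INM, against 5.78 and 6.14 in hESC. Its INM signals lie among the medians of unnamed probe sets, so the size of the fall is not given. Calls in SMC versus hESC numbered 5 to 7 without any 1 of the hESC or SMC arrays and 14 without either INM array. The 6 calls in INM versus hESC became 2 to 4 without any 1 of the hESC or SMC arrays, and the 7 in SMC versus INM became 0 without either SMC array, 2 without either hESC array and 11 without INM replicate 1.

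The list of readers holds genes of families that read methylated or unmethylated CpG, and not every member need bind it. Of 12 measured, 5 were called higher, 0 lower and 7 neither way in INM versus hESC, with a median change of 0.31. In SMC versus hESC 5 were called higher and 1 lower (KDM2B), with a median of 0.45. Of all genes, 18.9% were called higher and 14.8% lower in INM versus hESC (median -0.03), and 19.7% higher and 17.6% lower in SMC versus hESC (median -0.05). ZBTB38, a zinc finger protein that binds methylated DNA, stood at 8.23 and 7.95 in hESC, 10.10 and 10.02 in INM, with 9.27 and 9.34 in SMC, which is 1.97 (SE 0.13, adjusted p = 1.9e-04) in INM versus hESC. Its relatives ZBTB33 and ZBTB4 rose by 0.76 (SE 0.13) and 0.77 (SE 0.14) in that comparison. MBD5, a member of the methyl-CpG-binding domain family, rose by 0.87 (SE 0.13) in INM versus hESC and by 1.46 (SE 0.13) in SMC versus hESC. The 5 calls in INM versus hESC became 3 without hESC replicate 1, and the 6 in SMC versus hESC became 3 without hESC replicate 1, SMC replicate 1 or SMC replicate 2 and 9 without either INM array.

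Among TET partners and suppliers of its cofactors, 4 of 11 were called higher and 3 lower in INM versus hESC, and 4 higher and 2 lower in SMC versus hESC. IDH2, the mitochondrial enzyme that makes the TET co-substrate alpha-ketoglutarate, rose by 1.54 (SE 0.11, adjusted p = 2.3e-04) in INM versus hESC. IDH1 of the same list went the other way, with means of 11.92 in hESC, 11.43 in INM and 11.09 in SMC. Means of IDH3A, also in the list, were 9.84 in hESC, 9.70 in INM and 9.92 in SMC. QSER1, a protein that works with TET1 against new methylation, fell by 1.19 (SE 0.11, adjusted p = 4.2e-04) in SMC versus hESC. Over all genes 33.8% were called in INM versus hESC and 37.2% in SMC versus hESC, and the counts of this list and of the repair, donor cycle and germline lists are read against these shares. OGT, the sugar transferase bound to TET proteins, was not called, at -0.20 (SE 0.16) in SMC versus hESC. The base excision repair list holds other glycosylases besides genes of later repair steps. Of its 10 genes, 0 were called higher and 4 lower in SMC versus hESC, and 1 higher and 2 lower in INM versus hESC. The uracil glycosylase UNG was at -1.62 (SE 0.12) and PARP1 at -1.32 (SE 0.16) in SMC versus hESC. Of 16 genes of the methyl donor cycle, 3 were called higher and 6 lower in SMC versus hESC, and 2 higher and 5 lower in INM versus hESC. NNMT, which spends the methyl donor on nicotinamide, stood at 6.99 and 6.32 in hESC, 8.69 and 7.20 in INM, with 10.13 and 10.42 in SMC, at 3.62 (SE 0.47, adjusted p = 0.00151) in SMC versus hESC. Of 11 germline genes that promoter methylation silences in mouse, 0 were called higher and 2 lower (DAZL and GTSF1) in SMC versus hESC. The calls in INM versus hESC were the same, and 8 of the 11 had means under 5.04 in every group. GTSF1 had a hESC mean of 5.36, among the medians of unnamed probe sets, and means under 5.04 in INM and SMC. DAZL means in INM and SMC also lay among these medians, so the size of neither fall is given. Calls in SMC versus hESC without any 1 of the hESC or SMC arrays numbered 3 or 4 for the TET partners, 2 or 3 for repair, 5 or 6 for the donor cycle and 2 or 3 for the germline genes, and without either INM array 8, 7, 11 and 4. In INM versus hESC the 7 calls of the TET partners became 3 and the 7 of the donor cycle 1 without either hESC array.

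**Figure D5:**
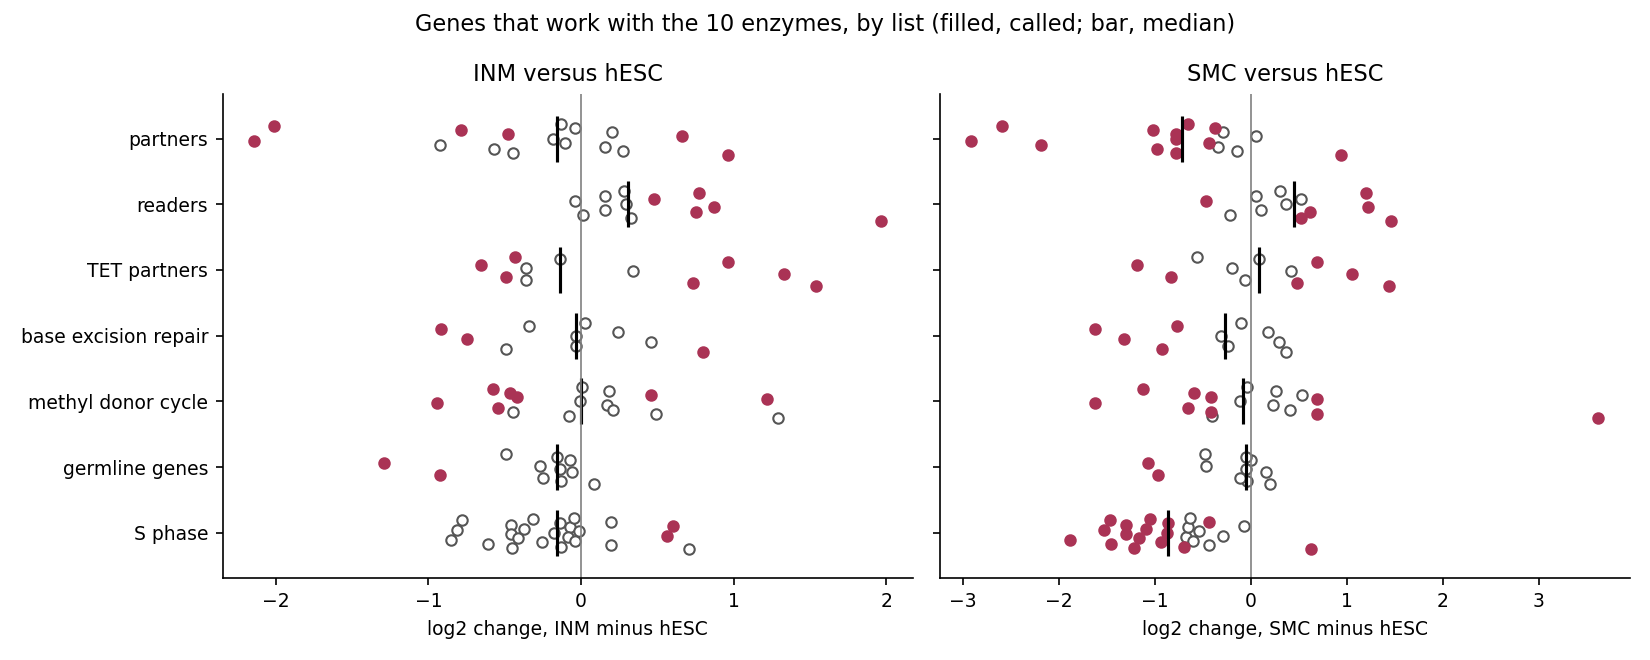
Log2 change of the genes of 7 lists (horizontal axis) in INM versus hESC and in SMC versus hESC, with 1 point per gene, filled where called, and a bar at the median. Partners of the methyltransferases and S phase genes lie mostly left of 0 in SMC versus hESC (medians -0.72 and -0.86), and readers mostly to the right (median 0.45).

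The genes with the most similar profiles were found by the root mean square difference between log2 values over the 6 arrays, after each gene's own mean was subtracted. Closest to DNMT3B were L1TD1 (difference 0.09), the amino acid transporter SLC7A3 (0.30) and POLR3G, a subunit of RNA polymerase III (0.34). L1TD1 had means of 8.52 in hESC, 5.75 in INM and 3.47 in SMC. The SMC mean lies under 5.04 and the INM mean close to the highest median of unnamed probe sets, 5.65, so its likeness to DNMT3B rests in part on signals not shown to be above background. Closest to TET1 were the ubiquitin ligase gene RNF138 (0.08), IGFBPL1 (0.09) and PRODH (0.09). Closest to TET2 were MAPRE3 (0.07), the fibronectin gene FN1 (0.09) and ELFN1 (0.10), and FN1 had means of 11.30 in hESC, 13.30 in INM and 13.59 in SMC. Closest to UHRF1 were MTOR (0.06), AKAP8 (0.06) and CNOT1 (0.06), all highest in INM and lowest in SMC.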

How the data were processed

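The deposited table holds log2 signals of 33297 probe sets on 6 arrays. The submitters' processing notes name RMA and limma, with no version. That the authors' values are log2 follows from their range, 1.36 to 14.1. RMA settings and a genome build for the array were not given in the sources used here. Gene names came from GEO's platform table (19460 probe sets with 1 symbol, 1754 with several and 12083 unnamed), symbols were updated by Entrez identifier to RefSeq on GRCh38.p14 (19429 matched), and the brightest probe set per gene was kept. One mean per group was fitted over the 6 arrays together with limma 3.58.1 in R 4.3.3, without a filter, with two-sided tests and 3 residual plus 3.56 prior degrees of freedom. With 2 arrays a group, 0.333 is the smallest p of an exact two-sided permutation test. Signal over background was judged only against the medians of unnamed probe sets, without a detection test for each gene. The number of arrays limits the precision.

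The members, gene lists and alternatives were chosen with earlier results of these data known. The named-gene rule took the 10 genes, the called genes of each list (all where 5 or fewer, otherwise the 4 with the largest change, of which the text gives some), 6 further list genes and the 3 closest profiles of 4 genes. KDM2B, KDM1B in SMC versus hESC, and the markers MYH11, MYOCD and PECAM1 fall outside it and were named after their values were seen. The means of IDH1 and IDH3A were likewise chosen after their values were seen. The set of 4 ICF syndrome genes was also put together outside the rule. Some list genes and markers are not reported here.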

Additional observations from a re-analysis of the deposited data

How the results depend on the processing

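In 15 alternatives to each comparison (2 normalizations, a low-signal filter, 2 treatments of probe sets, 2 variance models, only the 4 arrays compared, a replicate block and 6 fits with 1 array left out), the calls of DNMT3B in all 3 comparisons, of TET2 in both comparisons with hESC and of TET1 in SMC versus hESC were kept throughout. Where a group was left with 1 array, that array was assumed to vary like the other groups. For the comparison between those other groups, such a fit is the same test as only the 4 arrays compared. The count of called members in SMC versus INM was 4, and 1 with only the 4 arrays compared. It ran from 1 to 7 with 1 array left out. In SMC versus hESC it was 5 (2 higher and 3 lower), 8 with quantile normalization (2 higher and 6 lower), 7 with median centring (2 higher and 5 lower), 9 with array weights and 8 with only the 4 arrays compared, and from 3 to 8 with 1 array left out. Leaving out 1 array gave 2 to 4 in INM versus hESC and 3 to 9 in the F test, against 3 and 6. Median centring on the genes tested and quantile normalization moved the share of higher calls over all genes in INM versus hESC to 46.0% and 46.2%, against 56.1%. In SMC versus hESC median centring called 3435 of all genes higher and 3643 lower, and quantile normalization 3324 and 3804, against 3625 and 3234. For the other alternatives the share of all genes called is not given. Counts of members and of list genes under them are therefore not read as particular to these genes. Among the 10 genes, the sign turned only for changes that were not called on all 6 arrays. For INM versus hESC, DNMT1 turned to -0.0693 with median centring and -0.24 with quantile normalization, and TDG to -0.0501 and -0.0904. With quantile normalization DNMT3A turned to -0.0213, UHRF1 to -0.045 and DNMT3L to 0.069 in this comparison, and DNMT3L to 0.0344 in SMC versus hESC. In SMC versus INM, DNMT3L turned to 0.0084 with median centring. With 1 array left out the INM versus hESC change ran from -0.36 to 0.3859 for DNMT1, from -0.34 to 0.3973 for TDG and from -0.1022 to 0.0102 for DNMT3L, and the SMC versus INM change from -0.0893 to 0.0231 for DNMT3L and from -0.247 to 0.011 for UHRF2. The causes were not tested. Same-numbered arrays are not stated to be paired, and the correlation across genes of replicate 1 minus replicate 2 was 0.07 for hESC and INM, -0.12 for hESC and SMC and -0.07 for INM and SMC. With the replicate block 3, 3 and 4 members were called when INM was set against hESC, SMC against INM and SMC against hESC, against 3, 4 and 5 without it, and the F test called 5, against 6.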
